A study of Mus musculus with 12 samples.

Results

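A set of 9 genes of nutrient uptake was followed in mouse NK (natural killer) cells, innate lymphocytes able to kill infected or malignant targets. The set holds Slc3a2, Slc7a5, Slc7a6, Slc7a1, Slc1a5, Slc1a4, Slc38a1 and Slc38a2, which encode amino acid transporters or their subunit, and Tfrc, which encodes the transferrin receptor. The members were taken by gene symbol, 9 of the 56748 gene IDs in each count file, and all 9 passed the filter on low counts. RNA was sequenced from NK cells sorted out of mouse lymph nodes in 12 libraries. The tumor-free group (n = 4) came from nodes of C57BL/6J mice without tumor. The lymphatic group (n = 4) and the hematogenous group (n = 4) came from tumor-bearing nodes in a model of diffuse large B cell lymphoma, with spread through lymphatic vessels in the first and through blood vessels in the second. The sources used here give neither the lymphoma cells, nor the age and sex of the mice, nor any handling of the tumor-free mice, nor the markers of the sort. Nothing in the labels says that libraries 1 to 4 of a group are from different animals, so p-values measure the spread between these libraries, which may be technical. The comparison asks whether mRNA of these transporters differed between NK cells of tumor-free nodes and nodes reached by either route.

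Activated lymphocytes need amino acids and iron for growth. Slc3a2 encodes the heavy chain known as CD98, which carries light chains such as Slc7a5 (an exchanger of large neutral amino acids) and Slc7a6 (an exchanger of cationic and neutral amino acids) to the cell surface. Slc7a1 imports arginine and lysine, Slc1a5 and Slc1a4 exchange small neutral amino acids, with glutamine a substrate of Slc1a5, and Slc38a1 and Slc38a2 import glutamine and other neutral amino acids together with sodium. Tfrc takes up transferrin-bound iron. Inside the cell, amino acids are sensed by the kinase complex mTORC1 and, when they are short, by the kinase GCN2, which raises translation of the transcription factor ATF4. Iron is sensed by iron regulatory proteins, which bind hairpins in mRNA called iron-responsive elements. Binding in the 3′ untranslated region of Tfrc protects that mRNA from decay, and binding in the 5′ untranslated region of ferritin mRNA blocks its translation.

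The hairpins are shown because Tfrc is the member with a known post-transcriptional switch, so that its mRNA level can move without a change in transcription. GENCODE M21 transcripts were searched for a C, a stem of 5 bases, the loop CAGTGN (N other than G) and 5 bases that pair with the stem (G-T pairs allowed). This search was added after the data were seen. Tfrc held 4 matches, all in the 3′ untranslated region of the transcript Tfrc-201, and no transcript of the other 8 members held one. Of 21901 coding genes, 222 (1.01%) held a match. The loop is in capitals, and a match is a description of the letters, not evidence of binding.
Tfrc, position 3321 of the transcript: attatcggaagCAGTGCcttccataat
Tfrc, position 3700: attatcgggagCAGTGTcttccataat
Tfrc, position 3765: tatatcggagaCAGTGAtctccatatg
Tfrc, position 3812: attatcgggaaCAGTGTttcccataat
Ftl1, 5′ untranslated region, position 84: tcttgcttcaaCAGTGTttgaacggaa
The Ftl1 site, in the mRNA of the ferritin light chain, is given for comparison, because Ftl1 is among the iron genes described further on.

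Promoters are shown for Slc3a2 and Tfrc, the members that rose in the lymphatic group. RefSeq windows of 300 bases (GRCm38.p6, 250 before and 50 after a start site) were held for 6 of the 9 members, with 9 windows in all. Both strands were searched for CACGTG, the E-box bound by MYC, and for TGATGNAA, an amino acid response element bound by ATF4. CACGTG was in 0 of the 9 windows and in 7.15% of all 32851 windows. TGATGNAA was in 1 of the 9, that of Slc1a4, and in 3.97% of all. An absent match says only that these letters are not in these windows. The 120 bases before the start site follow, and neither motif is among them.
Slc3a2, chr19:8713898-8714017, minus strand: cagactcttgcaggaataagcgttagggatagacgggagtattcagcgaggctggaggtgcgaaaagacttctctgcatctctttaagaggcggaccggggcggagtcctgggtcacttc
Tfrc, chr16:32608776-32608895, plus strand, the first of 2 start sites: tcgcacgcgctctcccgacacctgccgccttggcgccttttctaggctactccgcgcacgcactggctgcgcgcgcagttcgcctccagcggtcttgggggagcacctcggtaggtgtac

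Depth ran from 6654215 to 43494812 gene counts per library and was lowest in tumor-free replicates 1, 2 and 4. These libraries also held the fewest genes when every library was thinned to 6654215 counts. They then had 14755, 14168 and 14566 genes with a count, against 20874 in tumor-free replicate 3. The lymphatic libraries had 18376 to 21926 and the hematogenous libraries 16834 to 21052. Reads assigned to genes made up 68.3 ± 2.32% in the tumor-free, 69.9 ± 2.46% in the lymphatic and 62.0 ± 4.57% in the hematogenous group, and reads outside features 14.8 ± 4.30%, 15.7 ± 1.75% and 21.2 ± 3.01% (mean ± SD, n = 4). Every hematogenous library had a lower share in genes than every library of the other groups. The NK markers Ncr1 and Klrb1c, both surface receptors, were abundant in every group, at 1372 ± 101 and 1227 ± 119 CPM (counts scaled to a common library size by the trimmed mean of M values, TMM; mean ± SD, n = 4) in tumor-free libraries. Ncr1 was at 1041 ± 119 CPM in lymphatic and 645 ± 147 CPM in hematogenous libraries. Klrb1c was at 842 ± 85 and 856 ± 162 CPM in the same order. The summed level of the 10 NK markers ran from 11000 to 13141 CPM in the tumor-free, from 10016 to 11990 in the lymphatic and from 7202 to 9018 in the hematogenous group. Summed levels of 10 B cell markers ran from 28.3 to 132, from 97.3 to 328 and from 89.8 to 159 CPM in the same order, with Cd79a, a subunit of the B cell receptor, at 10.1 ± 5.80, 21.3 ± 11.8 and 10.8 ± 3.48 CPM. Those of 10 genes of cycling cells ran from 361 to 525, from 594 to 857 and from 222 to 348 CPM. Those of 8 T cell markers ran from 288 to 399, from 312 to 484 and from 442 to 573 CPM, with Cd3e, a chain of the T cell receptor complex, at 40.6 ± 24.7, 52.8 ± 12.4 and 101 ± 20.5 CPM. None of the NK, B, T or cycling markers was at 0 in all libraries of a group. Sums of 8 myeloid markers ran from 215 to 266, from 216 to 298 and from 246 to 296 CPM, with the macrophage lysozyme gene Lyz2 at 95.4 ± 24.8, 69.1 ± 32.0 and 91.0 ± 42.5 CPM and Cd14 at 0 in the tumor-free group. Sums of 6 plasma cell markers ran from 123 to 158, from 150 to 194 and from 108 to 159 CPM (Jchain and Tnfrsf17 at 0 in the tumor-free and Tnfrsf17 at 0 in the hematogenous group), and those of 6 dendritic cell markers from 9.93 to 28.2, from 12.4 to 19.4 and from 15.9 to 27.9 CPM (Clec9a at 0 in the tumor-free group). Called markers numbered 1, 7 and 6 of 10 for NK cells, all lower, in the lymphatic, hematogenous and direct comparison. They numbered 1, 1 and 0 of 10 for B cells, 0, 2 and 1 of 8 for T cells and 1, 4 and 0 of 7 tested for myeloid cells, all higher. Over all genes tested, 2.74%, 16.4% and 8.85% were called in the same comparisons. Counts of 1 or 2 in lists this short do not set them apart from all genes. In bulk RNA, fewer cells of a type and less RNA per cell cannot be told apart. The part of these shifts in the transporter values was not tested, except where a B cell covariate is given below.

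Set per kilobase of exon, so that genes can be compared, Slc1a5 stood highest over the 12 libraries at 54.2 CPM per kb. Slc38a2 followed at 40.7, Slc3a2 at 27.9 and Slc38a1 at 16.6 CPM per kb. Slc7a6, Tfrc, Slc7a5 and Slc7a1 lay together between 7.54 and 8.78 CPM per kb, and their ranges over the libraries overlapped. Slc1a4 was near the limit of detection at 0.312 CPM per kb. Slc1a5 and both sodium-coupled importers were thus read at higher levels than the transferrin receptor and the light chains of CD98. Exon lengths come from GENCODE M21, and a gene's used transcripts may be shorter.

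**Figure D1:**
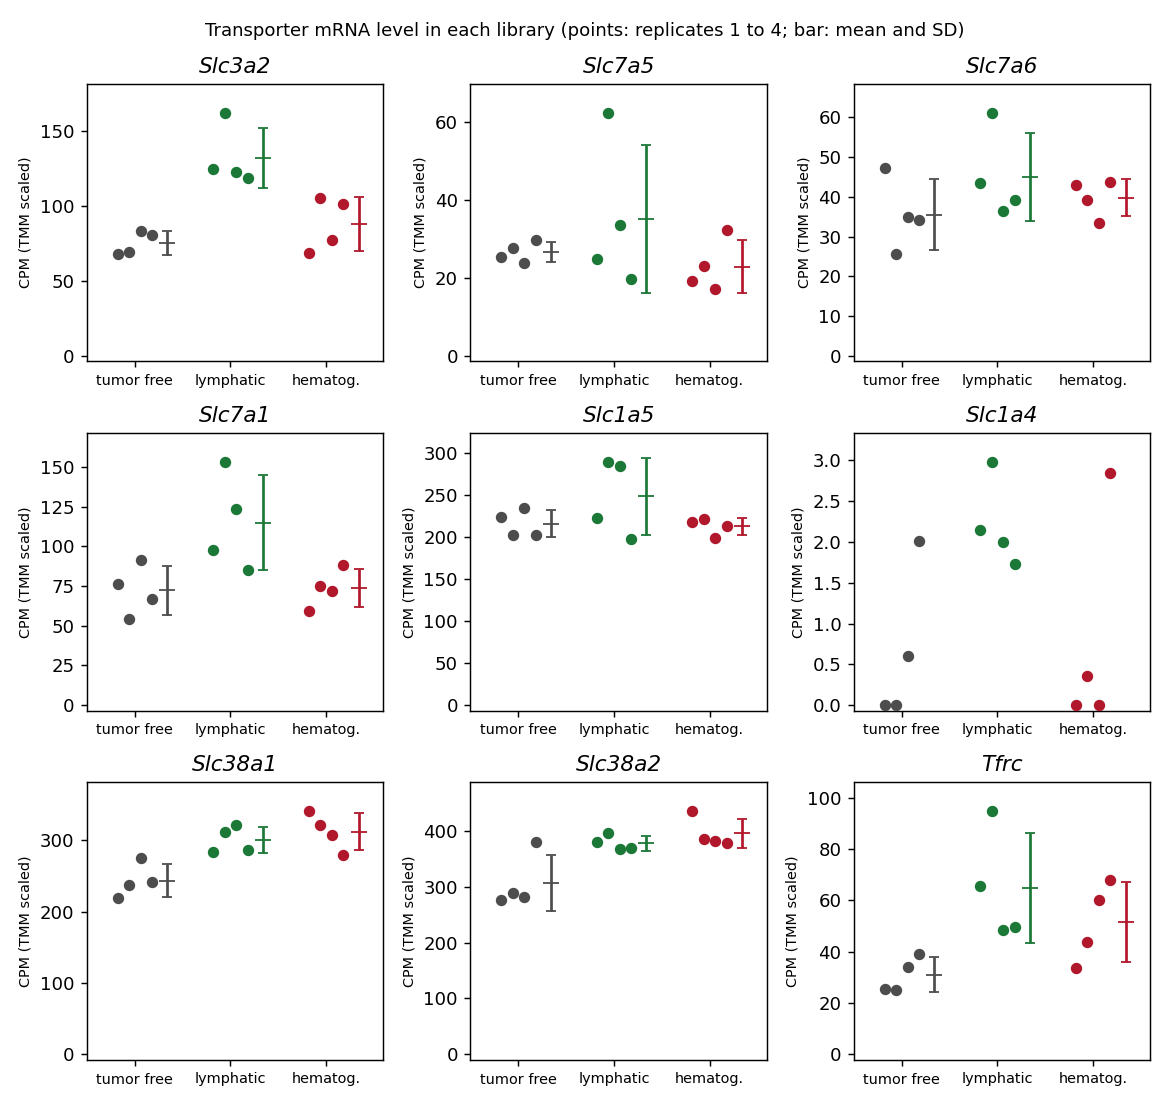
Level of each of the 9 transporter genes in every library, in TMM-scaled CPM (vertical axis, linear, 1 panel per gene), with replicates 1 to 4 from left to right in each group and the group mean and SD as a bar (no bar for Slc1a4, which is at 0 in 4 libraries). The 4 lymphatic libraries sit above all others for Slc3a2 (119 to 162 CPM), and above all tumor-free libraries for Tfrc (48.6 to 94.6 against 25.2 to 39.0 CPM).

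In the lymphatic group, 2 of the 9 transporter genes were called against tumor free, Slc3a2 and Tfrc, and both were higher. Over all genes tested, 2.74% were called in this comparison (439 of 16016, edgeR quasi-likelihood test, Benjamini-Hochberg adjusted p under 0.05). All 9 members had a positive log2 fold change, with a median of 0.40, against a median of 0.08 and a positive sign in 58.3% over all genes tested. Lymphatic replicate 2 had the highest level of all libraries for every member but Slc38a1 and Slc38a2. Without it Slc7a5 was at −0.06, Slc1a5 at 0.09 and Slc7a6 at 0.13, while Slc3a2 was at 0.66. The positive sign of all 9 thus rests in part on this library. In the hematogenous group, 3 of the 9 were called against tumor free, all higher, namely Slc38a1, Slc38a2 and Tfrc, where 16.4% of all genes were called. The members' median log2 fold change there was 0.22, against 0.08 over all genes. The part of the lower share of reads in genes in the hematogenous results was not tested. Between the models, 2 of the 9 were called, Slc3a2 and Slc7a1, both lower in the hematogenous group, where 8.85% of all genes were called. The median was −0.33 there, against −0.01 over all genes. The first 2 comparisons share the tumor-free libraries and each model enters 2 comparisons, so the 3 are not independent.

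Slc3a2, the heavy chain, was at 67.8, 69.5, 83.3 and 80.6 CPM in tumor-free replicates 1 to 4. It was at 125, 162, 122 and 119 CPM in the lymphatic libraries. It was at 68.2, 105, 77.2 and 101 CPM in the hematogenous libraries. Every lymphatic library was above every library of both other groups, while the hematogenous libraries overlapped with tumor free. Slc3a2 rose by 0.81 on the log2 scale in the lymphatic group (1.75-fold, SE 0.154, edgeR adjusted p = 0.00461). The hematogenous difference from tumor free was 0.22 (SE 0.154, edgeR adjusted p = 0.363), and the direct difference between the models was −0.58 (SE 0.153, edgeR adjusted p = 0.0211). The call between the models was lost without lymphatic replicate 2, hematogenous replicate 1 or hematogenous replicate 3, with adjusted p up to 0.1098. With the mean of the B cell markers as a covariate, the log2 fold change in the lymphatic group was again 0.81, and the call was lost (edgeR adjusted p = 0.0591).

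The marker sum of stroma and endothelium was, like Slc3a2, highest in the lymphatic group. The 8 markers of stroma and endothelium summed to 112 to 128 CPM in the tumor-free, 161 to 174 in the lymphatic and 117 to 139 CPM in the hematogenous libraries, and the lymphatic libraries did not overlap with the others. Nearly all of this sum was Pecam1, which leukocytes also express, at 116 ± 5.99, 168 ± 6.22 and 125 ± 11.0 CPM (mean ± SD, n = 4). Kdr, Pdpn and Lyve1, which define endothelium or lymphatic vessels, were at 0 in the tumor-free, lymphatic and hematogenous group respectively. Only 2 of the 8 markers passed the filter. In the lymphatic comparison Pecam1 was called higher, while the other had a negative log2 fold change and was not called (median −1.03). The sum therefore describes Pecam1 rather than the list. Of the 10 genes of cycling cells, 1 was called higher in the lymphatic group, 3 lower in the hematogenous group and 7 lower between the models. The shares of all genes called were 2.74%, 16.4% and 8.85% in the same order. The part of these genes in the Slc3a2 values was not tested.

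Slc7a5, the light chain that pairs with CD98 for leucine and other large neutral amino acids, did not pass the test in any comparison. It was at 25.4, 27.7, 23.9 and 29.6 CPM in the tumor-free libraries. The lymphatic libraries were at 24.8, 62.3, 33.6 and 19.8 CPM and the hematogenous at 19.2, 23.0, 17.1 and 32.2 CPM. Lymphatic replicate 2 stood well above the other 11 libraries, and the groups overlapped. The lymphatic difference from tumor free was 0.40 (SE 0.289, edgeR adjusted p = 0.622), and it was −0.06 without lymphatic replicate 2. Slc7a6, the other light chain, ran from 25.6 to 47.2 CPM in the tumor-free, from 36.4 to 61.1 in the lymphatic and from 33.4 to 43.6 in the hematogenous group, with no call.

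A ratio of raw counts within a library does not depend on scaling, so it was used to compare the light chain with its heavy chain. For every 100 counts of Slc3a2 there were 37.4, 39.8, 28.7 and 36.8 counts of Slc7a5 in the tumor-free libraries. There were 19.9, 38.4, 27.5 and 16.7 in the lymphatic and 28.1, 21.8, 22.1 and 31.8 in the hematogenous libraries. The groups overlapped in all 3 comparisons. Against tumor free the mean log2 ratio differed by −0.54 in lymphatic libraries (two-sided exact permutation test, p = 0.143) and by −0.47 in hematogenous libraries (exact p = 0.0571). For 4 libraries against 4 the smallest possible exact p is 0.0286, and after adjustment over the 9 ratio tests the lowest value was 0.257.

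Slc7a1, the importer of arginine and lysine, was at 76.6, 54.4, 91.2 and 67.1 CPM in the tumor-free libraries. The lymphatic libraries were at 98.0, 153, 123 and 85.3 CPM and the hematogenous at 59.3, 74.8, 72.1 and 88.3 CPM. Lymphatic replicates 1, 2 and 3 were above all 8 other libraries, and replicate 4 was not. The lymphatic difference from tumor free was 0.66 (SE 0.187, edgeR adjusted p = 0.0642), and the hematogenous difference was 0.02 (SE 0.187, edgeR adjusted p = 0.958). Between the models Slc7a1 was lower in the hematogenous group by a log2 difference of −0.64 (SE 0.186, edgeR adjusted p = 0.035). That call was lost under all 3 other scalings (edgeR adjusted p = 0.0714 with library size alone), with voom weights, and when 1 of 7 libraries was left out (tumor-free 1 or 4, lymphatic 2 or 3, hematogenous 1, 2 or 3; adjusted p up to 0.170). The lymphatic difference from tumor free was in turn called without tumor-free replicate 3 or lymphatic replicate 4 (edgeR adjusted p down to 0.0327), with no filter on low counts (edgeR adjusted p = 0.00562) and by the DESeq2 Wald test (adjusted p = 0.0466).

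Slc1a5, the member with the highest level per kilobase, had groups that overlapped in every comparison. It ran from 202 to 235 CPM in the tumor-free, from 198 to 290 in the lymphatic and from 199 to 222 in the hematogenous group. No comparison was called (log2 differences of 0.20, −0.02 and −0.22). Its relative Slc1a4 had 0, 0, 14 and 14 counts in the tumor-free libraries, 91, 109, 34 and 41 in the lymphatic and 0, 7, 0 and 39 in the hematogenous libraries. It was read in all 4 lymphatic libraries and in 2 of 4 in each other group. The libraries at 0 allow up to 0.351 and 0.444 CPM in tumor-free replicates 1 and 2 and 0.284 and 0.190 CPM in hematogenous replicates 1 and 3, taking 3 counts as the limit (counting error only). The lymphatic libraries were at 1.73 to 2.98 CPM, but tumor-free replicate 4 and hematogenous replicate 4 were also at 2.01 and 2.85 CPM. No difference passed the test (edgeR adjusted p from 0.625 to 0.916).

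Slc38a1 and Slc38a2, the sodium-coupled glutamine importers, were higher in the hematogenous group. Slc38a1 was at 219, 237, 275 and 242 CPM in the tumor-free, 283, 311, 322 and 286 in the lymphatic and 340, 321, 307 and 280 in the hematogenous libraries. Slc38a2 was at 276, 288, 281 and 381 CPM in the tumor-free, 380, 396, 367 and 368 in the lymphatic and 435, 386, 381 and 379 in the hematogenous libraries. For Slc38a1 all 8 tumor libraries were above all 4 tumor-free libraries, and for Slc38a2 only tumor-free replicate 4 reached the tumor groups. In the hematogenous group Slc38a1 rose by 0.36 (1.28-fold, SE 0.111, edgeR adjusted p = 0.0324) and Slc38a2 by 0.37 on the log2 scale (1.29-fold, SE 0.118, edgeR adjusted p = 0.0377). The lymphatic differences of both were 0.30 and were not called (edgeR adjusted p = 0.188 and 0.222), and the differences between the models were 0.05 and 0.06. An effect specific to one model is therefore not shown.

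Both hematogenous calls were small and easily lost. Slc38a1 lost its call without tumor-free replicate 1, 2 or 4, lymphatic replicate 4 or hematogenous replicate 1, 2 or 3 (adjusted p up to 0.0796). Slc38a2 lost its call without any library other than tumor-free replicate 4 and lymphatic replicate 3 (adjusted p up to 0.101), and without tumor-free replicate 4 its adjusted p was 0.00811. With the B cell covariate the log2 fold changes were 0.33 and 0.34 and neither was called (edgeR adjusted p = 0.146 and 0.170). The Slc38a1 call was also lost with no filter on low counts and with voom weights, and that of Slc38a2 with the compared groups alone. The log2 ratio of Slc38a1 to Slc38a2 differed between groups by −0.01, −0.02 and −0.01 in the 3 comparisons (exact permutation test, two-sided p from 0.857 to 0.943).

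**Figure D2:**
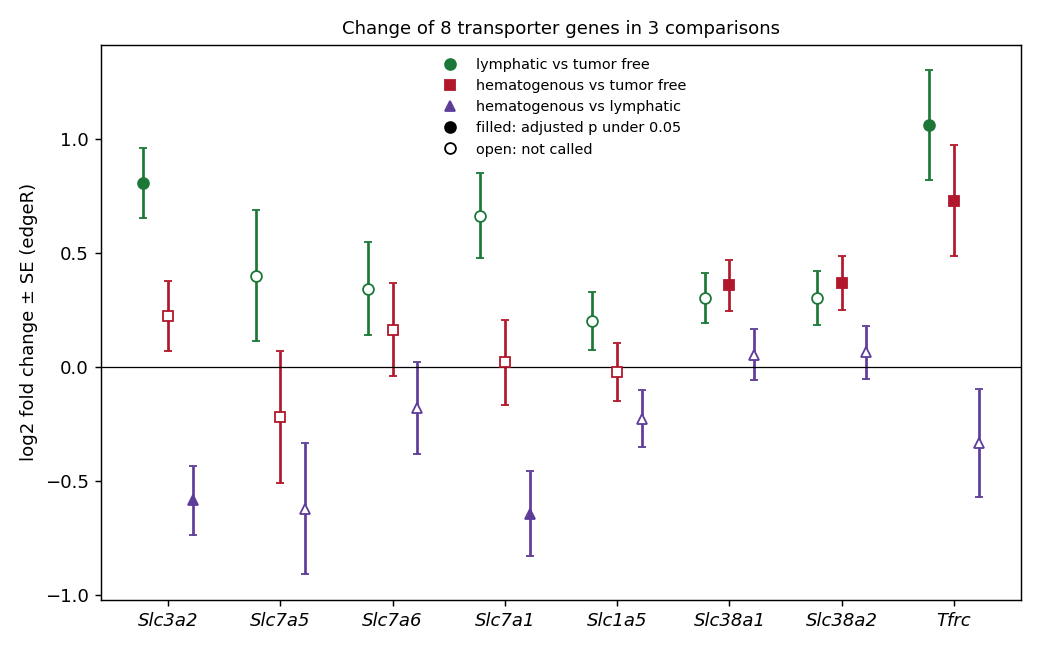
Log2 fold change with its standard error (vertical axis) for 8 transporter genes in the 3 comparisons, with filled symbols for an edgeR adjusted p under 0.05 and open symbols otherwise. Slc1a4 is left out because its fold change rests on few counts. Slc3a2 stands at 0.81 in the lymphatic group and −0.58 between the models, while Slc38a1 and Slc38a2 stand near 0.3 to 0.4 in both tumor groups.

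Tfrc was the member with the largest called change. It was at 25.5, 25.2, 34.1 and 39.0 CPM in the tumor-free libraries. The lymphatic libraries were at 65.5, 94.6, 48.6 and 49.7 CPM and the hematogenous at 33.6, 43.7, 60.2 and 68.0 CPM. All lymphatic libraries were above all tumor-free libraries, and hematogenous replicate 1 lay within the tumor-free range. Tfrc rose by 1.06 on the log2 scale in the lymphatic group (2.09-fold, SE 0.241, edgeR adjusted p = 0.0171) and by 0.73 in the hematogenous group (1.66-fold, SE 0.241, edgeR adjusted p = 0.0438). The models did not differ past the threshold (−0.33, SE 0.236, edgeR adjusted p = 0.471). The lymphatic call was lost without tumor-free replicate 1 or 2 or lymphatic replicate 2 (adjusted p up to 0.107), with voom weights (0.90, adjusted p = 0.0834) and with the B cell covariate (0.99, edgeR adjusted p = 0.190). The hematogenous call was lost when 1 of 7 libraries was left out (tumor-free 1, 2 or 3, lymphatic 1 or 4, hematogenous 3 or 4; adjusted p up to 0.138). It was also lost with voom weights (adjusted p = 0.0740), the compared groups alone (0.0522), the replicate block (0.0565) and the B cell covariate (0.163), at log2 fold changes from 0.68 to 0.78.

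Erythroid precursors carry much transferrin receptor, so their markers are set beside Tfrc. The summed level of 8 erythroid markers ran from 0 to 14.4 CPM in the tumor-free, from 13.3 to 38.1 in the lymphatic and from 0.851 to 54.4 CPM in the hematogenous group. Of the 5 that passed the filter, 1 was called higher in the lymphatic and 2 in the hematogenous group, where 2.74% and 16.4% of all genes were called. Klf1, a transcription factor of erythroid precursors, was at 0 in all 12 libraries. Hba-a2, an alpha globin gene, was at 0 in all tumor-free libraries and in hematogenous replicate 1. With the libraries of a group pooled Hba-a2 was at 2.357 and 2.105 CPM in the lymphatic and hematogenous groups. Against a floor of 3 counts over the pooled tumor-free group this is at least 35.9-fold and 32.1-fold higher. The bound covers counting error alone and not the spread between libraries. The lymphatic Hba-a2 call was lost without lymphatic replicate 3 (edgeR adjusted p = 0.0581) and with voom weights (adjusted p = 0.0619). The hematogenous call held with each library left out. Mki67, a marker of dividing cells, which also carry transferrin receptor, was at 60.2 ± 16.9, 160 ± 47.0 and 53.0 ± 16.9 CPM (mean ± SD, n = 4) in the tumor-free, lymphatic and hematogenous groups. It rose in the lymphatic group (log2 fold change 1.41, edgeR adjusted p = 0.00153, and 0.0763 with the B cell covariate) and not in the hematogenous group (−0.18, edgeR adjusted p = 0.655), where Tfrc was called. The part of dividing cells in the Tfrc values was not tested.

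**Figure D3:**
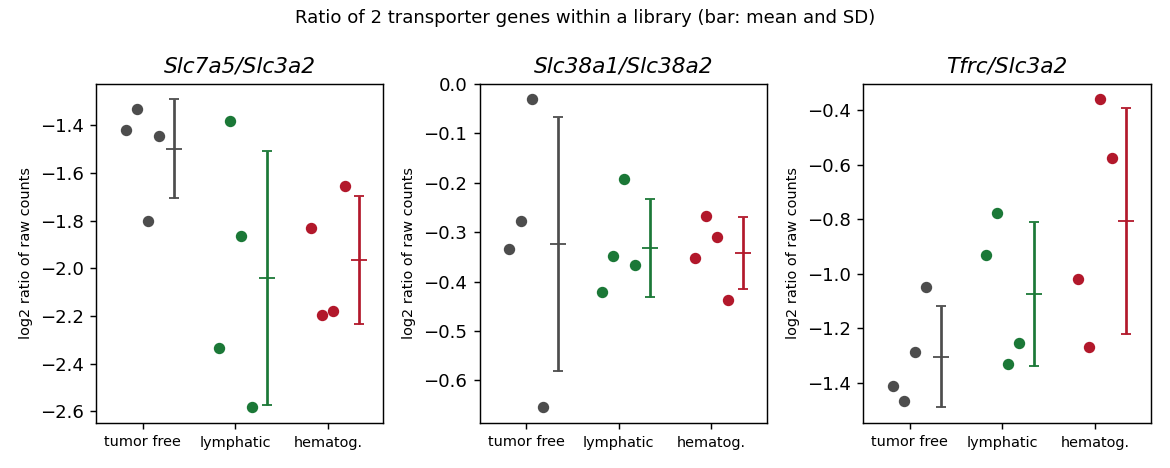
Log2 ratio of raw counts of 2 transporter genes within each library (vertical axis, 1 panel per pair), by group, with replicates 1 to 4 from left to right and the mean and SD as a bar. The Slc7a5 to Slc3a2 ratio has a mean of −1.50 in tumor-free libraries against −2.04 and −1.96 in the lymphatic and hematogenous libraries, and the groups overlap. The Tfrc to Slc3a2 ratio runs highest in hematogenous replicates 3 and 4.

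Relative to Slc3a2, Tfrc counts were 37.6, 36.2, 41.0 and 48.4 per 100 in the tumor-free libraries. They were 52.5, 58.4, 39.8 and 41.9 in the lymphatic and 49.3, 41.5, 78.0 and 67.1 in the hematogenous libraries. The mean log2 ratio was 0.50 higher in hematogenous than in tumor-free libraries (exact permutation test, two-sided p = 0.0571, adjusted 0.257), and the groups overlapped. The difference in how the 2 genes moved between groups is therefore not established by this test.

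As a description of which genes had a pattern most like these members, log2 CPM was correlated over the 12 libraries. The correlation covered 9162 tested protein-coding genes with a mean of at least 5 CPM. Genes with provisional or irregular symbols and those named Rpl or Rps with a number were left out, so ranks are not over all genes. The points share groups, so a high value can come from the groups alone, and the correlation after taking out group means is given too. Nearest to Slc3a2 were Irf8 (Pearson r = 0.953, within groups 0.839), Ifi206 (0.944, within groups 0.768), Pecam1 (0.941, within groups 0.771), Atf3 (0.931, within groups 0.800) and Serpine2 (0.925, within groups 0.802). Nearest to Tfrc were Nfkbiz (0.932, within groups 0.832), Atf3 (0.922, within groups 0.872), Naa40 (0.921, within groups 0.797), Cd69 (0.920, within groups 0.795) and Pnrc1 (0.904, within groups 0.765). Atf3, a stress-induced transcription factor, stood in both sets. Among the members, Slc7a1 ranked 67 (r = 0.863) and Tfrc 159 (r = 0.813) for likeness to Slc3a2, while its partner Slc7a5 ranked 881 (r = 0.590).

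The wider amino acid machinery was read from lists of other genes, whose counts stand against 2.74%, 16.4% and 8.85% of all genes called in the lymphatic, hematogenous and direct comparison. None of the 17 other amino acid transporters tested was called in the lymphatic group (edgeR; 0 at an unadjusted p under 0.05, and 0 by DESeq2 or voom), and 2 rose in the hematogenous group against both other groups. In a list of 17, counts this small do not set it apart from all genes. The DESeq2 Wald test called 4 higher in the hematogenous group against tumor free. The 2 genes called by edgeR were Slc38a9, a lysosomal arginine sensor that signals to mTORC1, and Slc36a1, an exporter of small amino acids from lysosomes. Slc38a9 was at 44.8 ± 7.60 CPM in tumor-free, 44.2 ± 7.58 in lymphatic and 79.3 ± 16.8 in hematogenous libraries (mean ± SD, n = 4; log2 fold change 0.82, edgeR adjusted p = 0.00479 against tumor free). Slc36a1 was at 51.6 ± 12.4, 51.6 ± 9.67 and 82.5 ± 12.2 CPM in the same order (0.67, edgeR adjusted p = 0.0171). The list's median log2 fold change was 0.01 in the lymphatic and 0.41 in the hematogenous group, against 0.08 over all genes in both. The Slc38a9 calls held with each library left out. The Slc36a1 call against tumor free was lost without hematogenous replicate 3 (adjusted p = 0.0661), its call against the lymphatic group was lost without lymphatic replicate 1, 2 or 4 or hematogenous replicate 3, and both genes lost the call against tumor free with the B cell covariate. The number higher against tumor free ran from 1, without hematogenous replicate 3, to 6, without tumor-free replicate 3, and was 4 under each of the 3 other scalings.

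Of 31 genes of amino acid sensing by mTORC1, 1 fell in the lymphatic group and 3 rose and 2 fell in the hematogenous group, in both cases a share near that of all genes. Flcn and Fnip1, partners in the folliculin complex that acts on the lysosomal Rag GTPases, rose in the hematogenous group against tumor free by 0.79 and 0.85 on the log2 scale (edgeR adjusted p = 0.00418 and 0.00383). Lamtor2, a subunit of the Ragulator complex that holds the Rag GTPases on the lysosome, fell from 63.1 ± 2.06 to 32.8 ± 10.4 CPM (mean ± SD, n = 4; −0.94, edgeR adjusted p = 0.00294). These 3 calls held with each library left out, and those of Flcn and Fnip1 were lost with the B cell covariate (adjusted p = 0.0645 and 0.0524). Castor1, a cytosolic arginine sensor, fell in the lymphatic group from 20.2 ± 7.71 to 8.76 ± 1.23 CPM (mean ± SD, n = 4; edgeR adjusted p = 0.0321), and this call was lost when 1 of 6 libraries was left out (tumor-free 2 or 4, or any lymphatic library; adjusted p up to 0.104), with the replicate block and with the B cell covariate (up to 0.418). The number higher in the hematogenous group was 5 without tumor-free replicate 3, and the number lower was 1 without tumor-free 2 or 4, lymphatic 1, or hematogenous 1, 3 or 4. The members of this list did not move one way, with a median of 0.06 and 0.04 against 0.08 over all genes.

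Atf4 mRNA was higher in the lymphatic group. It was at 213, 211, 159 and 173 CPM in the tumor-free, 322, 410, 273 and 335 in the lymphatic and 204, 193, 219 and 247 in the hematogenous libraries. All lymphatic libraries were above all others. Atf4 rose by 0.83 in the lymphatic group (SE 0.138, edgeR adjusted p = 0.00149), and its difference between the models was −0.63 (SE 0.137, edgeR adjusted p = 0.00719), and both calls held with each library left out. It was the 1 gene called of the 17 tested in the GCN2 and ATF4 list in the lymphatic group. Asns, asparagine synthetase and a textbook ATF4 target, was at 0.834 ± 1.56, 1.03 ± 0.895 and 2.28 ± 2.27 CPM (mean ± SD, n = 4) in the tumor-free, lymphatic and hematogenous groups, with no call.

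Between the models, 6 of the 17 genes of that list were lower and 1 higher in the hematogenous group, with a median of −0.52 against −0.01 over all genes. Phgdh, the first enzyme of serine synthesis, was at 59.1 ± 17.9 CPM in the lymphatic and 29.4 ± 10.2 in the hematogenous group (mean ± SD, n = 4; −1.01, edgeR adjusted p = 0.0137). Ddit4, an inhibitor of mTORC1, was the 1 higher gene, at 23.0 ± 6.54 and 90.6 ± 48.5 CPM (mean ± SD, n = 4; 1.98, edgeR adjusted p = 0.00826). The groups overlapped, as hematogenous replicate 1 was at 25.2 CPM, within the lymphatic range of 15.1 to 29.0 CPM. Hematogenous replicates 2, 3 and 4 were at 137, 85.4 and 114 CPM. The Ddit4 call held with each library left out, and that of Phgdh was lost without lymphatic replicate 2 or hematogenous replicate 1 or 3 (adjusted p up to 0.0771). The number lower was 1 without lymphatic replicate 2 or hematogenous replicate 3, and 3 without hematogenous replicate 1 or 2. Of 20 aminoacyl-tRNA synthetases, which charge tRNAs with amino acids, none was called in the lymphatic group (edgeR; 1 at an unadjusted p under 0.05, and 0 by DESeq2 or voom), 4 fell in the hematogenous group and 6 were lower in it than in the lymphatic group. Kars, for lysine, was at 155 ± 32.7 CPM in the lymphatic and 105 ± 13.0 in the hematogenous group (mean ± SD, n = 4; −0.57, edgeR adjusted p = 0.0164). The counts of synthetases lower between the models were 4, 2 and 1 under DESeq2 size factors, upper quartile scaling and library size alone, 10 with voom, 0 without lymphatic replicate 2 or hematogenous replicate 1 or 3, and 2 without hematogenous replicate 4. Against tumor free the count was 0 with the B cell covariate, 1 without hematogenous replicate 1 or 3 and 2 without tumor-free replicate 1 or 4 or lymphatic replicate 1.

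Of 20 iron-handling genes tested, none was called in the lymphatic group, where Tfrc rose (edgeR; 2 at an unadjusted p under 0.05, and 0 by DESeq2 or voom). In the hematogenous group 3 rose and 2 fell. Ftl1, the ferritin light chain whose hairpin is printed above, was at 192, 200, 230 and 246 CPM in the tumor-free, 181, 210, 218 and 203 in the lymphatic and 90.4, 155, 92.6 and 169 in the hematogenous libraries. All hematogenous libraries were below all others. Ftl1 fell by 0.78 on the log2 scale against tumor free (SE 0.173, edgeR adjusted p = 0.00495), and this call held with each library left out. Ftl1 has near-identical copies in the mouse genome, so its counts are uncertain where reads align to several places. Pcbp1, a protein that delivers iron to ferritin, fell from 150 ± 25.4 to 99.7 ± 15.1 CPM (mean ± SD, n = 4; −0.59, edgeR adjusted p = 0.015). Slc25a37, a mitochondrial iron importer, rose from 44.8 ± 12.0 to 80.7 ± 15.7 CPM (mean ± SD, n = 4; 0.84, edgeR adjusted p = 0.00418). The Pcbp1 call was lost without tumor-free replicate 3 (adjusted p = 0.0552) and the Slc25a37 call with the B cell covariate (0.0587). Over libraries left out in turn, the number higher ran down to 1, without lymphatic replicate 4, and the number lower from 1, without tumor-free replicate 3, to 3, without hematogenous replicate 1.

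Myc, a transcription factor known to drive several of these transporters in lymphocytes, was at 74.5 ± 9.26, 109 ± 29.2 and 68.5 ± 18.2 CPM (mean ± SD, n = 4) in the tumor-free, lymphatic and hematogenous groups. The lymphatic difference from tumor free was 0.55 and was not called (edgeR adjusted p = 0.177). The difference between the models was −0.67 (edgeR adjusted p = 0.0371), a call lost under all 3 other scalings, with voom weights, the compared groups alone, the replicate block and equal depth (and up to adjusted p = 0.179 with 1 library left out, for 7 libraries, among them lymphatic replicate 2). Of 9 genes of the MYC network tested, Mga, a repressor that binds with MAX, rose in the hematogenous group from 148 ± 23.1 to 246 ± 13.7 CPM (mean ± SD, n = 4; 0.73, edgeR adjusted p = 0.00067), and this call held with each library left out. Mxd1, a repressor that competes with MYC for MAX, rose in both tumor groups (0.59 and 0.43, edgeR adjusted p = 0.0283 and 0.043), calls that were lost when 1 of 7 or 1 of 8 libraries was left out (tumor-free replicates 1 and 2 and lymphatic replicates 2 and 4 among them). The lymphatic Mxd1 call was also lost under all 3 other scalings, with the B cell covariate and at equal depth (edgeR adjusted p up to 0.148 over these settings), and the hematogenous one with the compared groups alone and the B cell covariate (up to 0.107). Mlx fell in the hematogenous group (−0.70, edgeR adjusted p = 0.013), a call lost without tumor-free replicate 1 and with the B cell covariate.

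Of 15 tested genes of glutamine, branched-chain and other amino acid metabolism, 1 rose in the lymphatic group and 1 rose and 3 fell in the hematogenous group. Ppat, which commits glutamine to purine synthesis, fell in the hematogenous group from 63.9 ± 15.8 to 31.8 ± 1.15 CPM (mean ± SD, n = 4; −1.01, edgeR adjusted p = 0.00313) and was also below the lymphatic group (−1.11, edgeR adjusted p = 0.00293). Both calls held with each library left out. Bcat1, the cytosolic transaminase of branched-chain amino acids, had 0, 0, 8 and 0 counts in the tumor-free libraries, 238, 178, 34 and 54 in the lymphatic and 16, 15, 21 and 61 in the hematogenous libraries. Every tumor library had more counts than every tumor-free library. The number lower in the hematogenous group was 1 without tumor-free replicate 3 or hematogenous replicate 3. The lymphatic Bcat1 call (edgeR adjusted p = 0.0197) was lost without lymphatic replicate 1 or 2 and the hematogenous call (0.0178) without hematogenous replicate 4. With the B cell covariate both were lost, as were the lymphatic call with the replicate block (adjusted p up to 0.154) and the hematogenous call with voom weights (up to 0.0784). The 3 shallow tumor-free libraries, which also held the fewest genes at equal depth, were those at 0 for this gene.

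**Figure D4:**
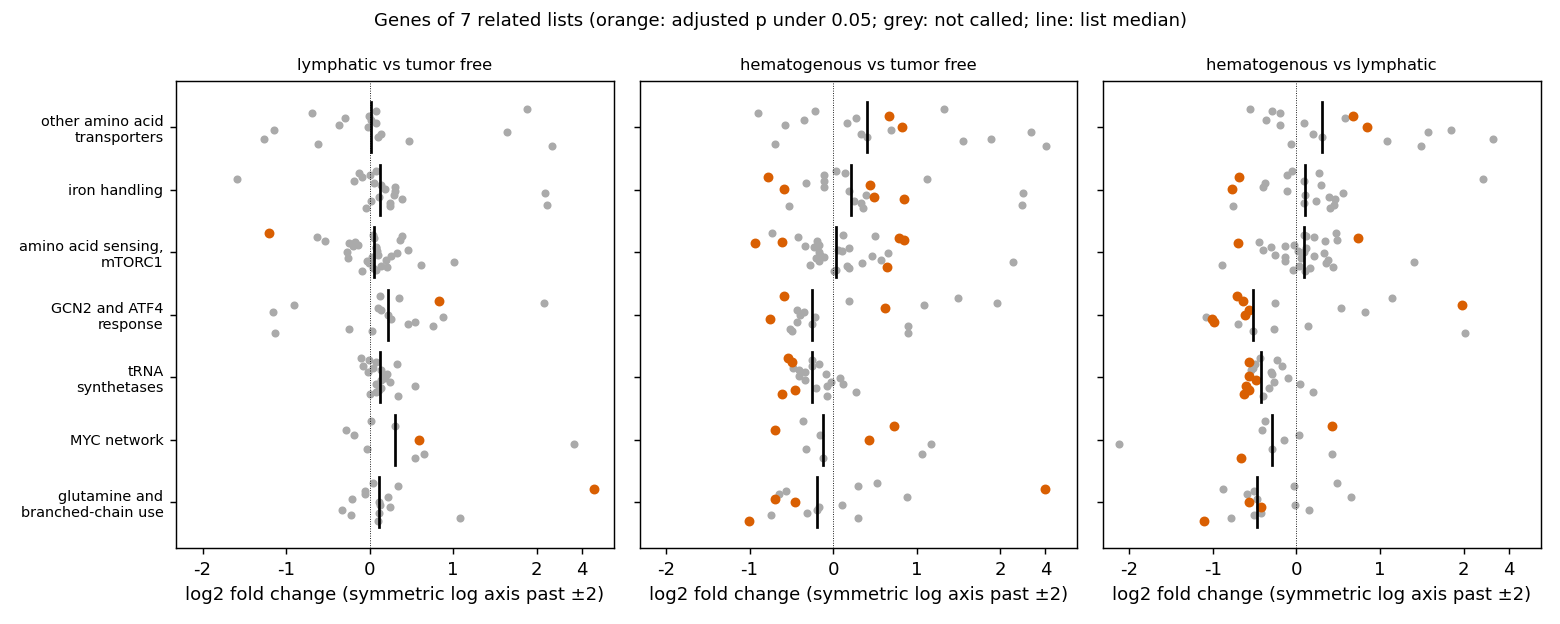
Log2 fold change (horizontal axis, linear to ±2 and logarithmic beyond) of each tested gene of 7 related lists in the 3 comparisons, with genes at an edgeR adjusted p under 0.05 in orange, others in grey and the list median as a line. In the lymphatic comparison few genes are orange. Between the models 6 synthetases and 6 genes of the GCN2 and ATF4 list are orange and below 0. Called or not, 18 of the 20 synthetases and 11 of the 17 genes of the GCN2 and ATF4 list stand below 0 there.

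**Figure D5:**
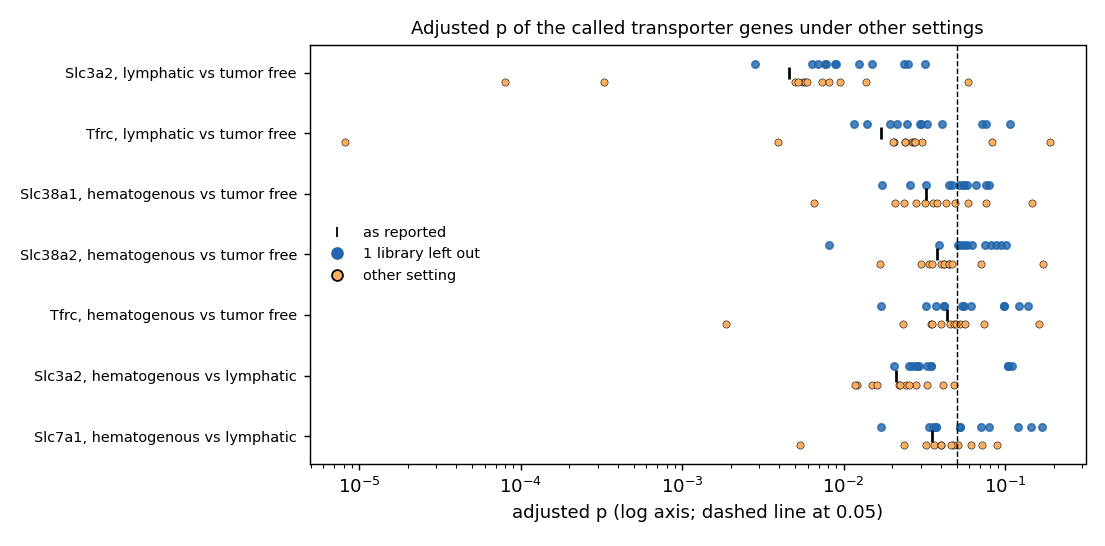
Adjusted p (horizontal axis, log scale) of the 7 called member results as reported (tick), with 1 library left out (blue) and under other settings (orange), with a dashed line at 0.05. For Slc3a2 in the lymphatic group every value but that of the B cell covariate (0.0591) lies below 0.05, while the 3 hematogenous results against tumor free lie on both sides of the line.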

How the data were processed

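Poly(A) RNA of sorted NK cells was sequenced as stranded, single-end reads of 120 bp per the labels' protocols, in 12 libraries, 4 in each of 3 groups taken from the sample titles. The authors deposited a table of raw counts for each library. FastQC 0.11.9, Trimmomatic 0.39, HISAT2 2.1.0, HTSeq 2.0.2 and the build GRCm39 are named in the submitters' processing notes. Neither the annotation release nor the strand setting is given in the sources used here. The 5 summary lines of each file were left out of library sizes, and they show 55.4% to 72.1% of reads in genes and 11.4% to 24.6% outside features. Symbols came from GENCODE M21 and matched 91.8% of IDs. Of the members, only Slc7a5 overlaps another annotated gene there, Gm20388 on the opposite strand, with no shared exon bases.

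All 12 libraries entered edgeR 4.0.16 (R 4.3.3; quasi-likelihood F test with robust estimation, TMM, the default filter by group, a model of group alone). This left 16016 genes and 9 residual degrees of freedom, and the biological coefficient of variation was 0.429. p-values were Benjamini-Hochberg adjusted over all genes and called under 0.05. The SE is the absolute log2 fold change over the square root of F. CPM are TMM-scaled. Ratios and library measures were compared by two-sided exact permutation tests, written in Python 3.11.15 with numpy 2.4.6. The planned ratio of Slc1a4 to Slc1a5 could not be computed because 4 libraries had no Slc1a4 count. None of the 39 tests of library measures passed after adjustment (lowest exact p = 0.0286, adjusted 0.101). That exact p is the smallest possible for 4 libraries against 4, so a pass needed many tests at this minimum. The lack of a pass therefore does not show that the groups were alike. Among the tests at the minimum were the NK sum and the share in genes, hematogenous against either other group, and the sum of cycling genes in every comparison.

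The 9 members, the 7 lists of related genes, the 9 marker lists and the tests were chosen with earlier results of these data known. Members were all named. From each related list up to 3 called genes per comparison with the smallest adjusted p could be named, besides Ncr1, Klrb1c, Cd79a, Cd3e, Lyz2, Hba-a2, Mki67, Myc, Atf4 and Asns, and the 5 genes nearest in pattern to Slc3a2 and to Tfrc. Ddit3 matched 2 IDs and was left out. Markers at 0 in every library of a group were also named, after their values were seen, apart from 1 that is not reported here. The reads carry no molecular identifiers, and a floor of 3 counts covers counting error alone.

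Alternatives were other scalings, filters and tools (DESeq2 1.42.0, voom with quality weights in limma 3.58.1), fits of the compared groups alone, a replicate block, a B cell covariate, thinning every library to 6654215 counts, a threshold of 0.01 and leaving out each library in turn.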

Additional observations from a re-analysis of the deposited data

Results flagged for a closer look

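In 27 groups of 4 values, 1 for each member and group, the gap of the highest or lowest library to its neighbour was set against the whole range of the group. In 4 of them a single library stood apart by more than the 95% critical value of Dixon's test, and chance alone does so in about 1 in 20 groups. Lymphatic replicate 2 was at 162 CPM for Slc3a2, where the gap was 0.858 of the range. Hematogenous replicate 4 was at 2.85 CPM for Slc1a4, with a gap of 0.876 of the range. For Slc38a2, hematogenous replicate 1 stood apart at 435 CPM (0.868) and tumor-free replicate 4 at 381 CPM (0.888). Leaving out lymphatic replicate 2 kept Slc3a2 called against tumor free and ended its call between the models.

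For 2 members the change from tumor free differed between the models by a direct test, Slc3a2 by −0.58 (edgeR adjusted p = 0.0211) and Slc7a1 by −0.64 (edgeR adjusted p = 0.035). Both were lower in the hematogenous than in the lymphatic libraries, and the shared tumor-free libraries cancel from this comparison. The groups did not overlap for Slc3a2 and overlapped for Slc7a1. Genes of cycling cells were lower in the same direction, with 7 of 10 called against 8.85% of all genes. Their part in the transporter differences was not tested.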

How the results depend on the processing

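The number of members called in the lymphatic group, 2, was 1 with voom weights, 0 with the B cell covariate, 1 at a threshold of 0.01, 3 with no filter on low counts or the DESeq2 Wald test, and 1 to 3 with each library left out. In the hematogenous group the number, 3, was 1 with voom weights, 1 with the compared groups alone, 0 with the B cell covariate, 0 at 0.01 and 0 to 3 with each library left out (0 without tumor-free replicate 1 or 2, lymphatic replicate 4 or hematogenous replicate 3). Between the models the number, 2, was 1 under each of DESeq2 size factors, upper quartile scaling, library size alone and voom weights, 0 at 0.01 and 0 to 2 with each library left out (0 without lymphatic replicate 2 or hematogenous replicate 1 or 3). The B cell covariate ran from −3.41 to 0.53 for tumor free, from 0.0586 to 1.89 for lymphatic and from −0.111 to 0.86 for hematogenous libraries. These ranges overlapped, and −3.41 was tumor-free replicate 2 alone, with the next lowest at −0.92. The called members' log2 fold changes against tumor free moved little with it (lymphatic Slc3a2 0.81 in both fits and Tfrc 1.06 to 0.99; hematogenous Slc38a1 0.36 to 0.33, Slc38a2 0.37 to 0.34 and Tfrc 0.73 to 0.68).

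Library size alone moved the median of all genes between the models from −0.01 to 0.10, so that Slc3a2 there (−0.48) should be read against that median. Under it 55.8% of calls between the models were higher, against 33.1% with TMM (47.4% and 52.3% with DESeq2 size factors and upper quartile scaling), and 73.2% against 84.7% in the lymphatic group. Signs turned in values that were never called. In the hematogenous group Slc7a1 was −0.053 with the B cell covariate, −0.0036 at equal depth and −0.080 to 0.16 with each library left out. Slc1a5 was 5.7e-05 with library size alone and −0.080 to 0.024 with each library left out. Slc1a4 was −0.41 with the B cell covariate and −2.28 to 1.73 with each library left out. In the lymphatic group Slc7a5 was −0.064 to 0.55 with each library left out. The cause of these changes was not tested.

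Deviations of libraries of one number were at most weakly correlated (from −0.0727 to 0.0589). Of 12 libraries, 3 were most like a library of their own number, and these were replicate 2 of each group. Pairing by number is not shown by these values, which cannot exclude it. With the replicate block 2, 2 and 2 members were called in the 3 comparisons, Slc1a4 in the hematogenous group was −0.22, and Tfrc lost its call there. Over all genes the block gave 362, 2518 and 1439 calls, against 439, 2625 and 1417. Slc1a4, Bcat1, Asns and Hba-a2 had few counts, and each was at 0 in at least 2 of the shallow tumor-free replicates 1, 2 and 4. Hba-a2 was also at 0 in tumor-free replicate 3, which had 23674960 gene counts. Tumor-free replicates 1, 2 and 4 held fewer genes than the other libraries at equal depth too. The part of depth and of this lower gene number in these zeros was not tested.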
